A study of Mus musculus with 2 samples.

Results

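The integrin subunit genes of myeloid cells were examined in single cells of mouse bone marrow cultures that had received Tamm-Horsfall protein (THP, or uromodulin, which the kidney secretes) or its vehicle. The members were 10 genes chosen by symbol, Itgal, Itgam, Itgax and Itgb2, Itga1, Itga4, Itga6 and Itgb1, and Itgav and Itgb3, out of 31053 genes listed for both libraries, and each symbol matched 1 gene. Marrow of 129Sv mice was grown with 10% serum and 50 ng/ml M-CSF, the growth factor that turns marrow cells into macrophages. Medium was added on day 3 and renewed in part on day 6. On day 7 one culture received 1 µg/ml of a truncated THP and the other 5% dextrose, each for 18 h, and the detached live cells were then made into droplet libraries that count unique molecular identifiers (UMIs) per gene and cell. Both cultures came from the same strain and the same growth factor, the labels name no age, sex or number of mice, and the cells were labelled as macrophages.

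There was 1 library per group. No value below therefore has a replicate check, no p-value was computed, and treatment, culture dish and library preparation cannot be told apart. The THP library kept 12123 of 13193 cell barcodes with a median of 16113 UMIs, and the vehicle library kept 10978 of 11584 with a median of 17223. The libraries shared 42 barcodes, 38 of them kept in each. All intervals are 95% intervals for counting error only. A level is given as UMIs per 1000000 (CPM). Log2 ratios compare CPM + 1 between the libraries, THP over vehicle, so a negative value is a lower level with THP. Counts came from poly(A)-primed cDNA, so levels are compared between cells and libraries for a gene, not between genes.

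An integrin is a receptor made of an α and a β chain that span the membrane and tie ligands outside the cell to actin inside it. The chain encoded by Itgb2 is made by leukocytes and pairs with those of Itgal (CD11a, a receptor for intercellular adhesion molecules), Itgam (CD11b, which also binds complement fragment iC3b and fibrinogen) and Itgax (CD11c). The chain of Itgb1 pairs with those of Itga1 (a collagen receptor), Itga4 (a receptor for Vcam1 and fibronectin), Itga6 (a laminin receptor) and Itgav. The pair of Itgav and Itgb3 binds vitronectin and osteopontin and is known from osteoclasts, while Itgb3 also pairs with Itga2b on platelets.

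By the GENCODE M21 annotation of GRCm38, with 1-based coordinates, 3 of the α genes of the Itgb2 family lie on chromosome 7: Itgal at chr7:127296260-127335138, Itgam at chr7:128062640-128118491 and its neighbour Itgax at chr7:128129547-128150657, all on the plus strand. Itgb2 lies at chr10:77530252-77565708. Another 3 α genes lie on chromosome 2, Itga6 at chr2:71745616-71858416, Itga4 at chr2:79255426-79333123 and Itgav at chr2:83724397-83806916. Itgb1 lies at chr8:128685654-128733200, Itgb3 at chr11:104608000-104670476, and Itga1 at chr13:114953096-115101964 on the minus strand, the only member not on the plus strand. Of the exonic bases of Itgam, 68.7% are also annotated in Gm49368 on the same strand, though none of its last 1000 exonic bases, where poly(A)-primed reads mostly lie. Gm49368 had 950 UMIs with THP and 941 with vehicle, against 29696 and 36751 for Itgam. The 3′ end of Itga4 overlaps Cerkl on the other strand in 533 of its last 1000 exonic bases, and Cerkl had 240 and 616 UMIs against 18850 and 29326 for Itga4. The labels do not say whether counting used the strand, so reads of the overlap of Itga4 and Cerkl could belong to either gene. Strand cannot separate Itgam from Gm49368, which lie on the same one.

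RefSeq promoter sequences (GRCm38.p6) were found for 6 of the 10 members. The 250 bases upstream of the start are printed for Itgam and Itgax, the neighbours whose levels lay in different cells, and for Itgb1, which had one of the largest differences of the members. Capitals mark each match of GAGGAA on either strand, the core of the PU.1 (ETS) site known from myeloid promoters.
Itgam, chr7:128062390-128062639, plus strand: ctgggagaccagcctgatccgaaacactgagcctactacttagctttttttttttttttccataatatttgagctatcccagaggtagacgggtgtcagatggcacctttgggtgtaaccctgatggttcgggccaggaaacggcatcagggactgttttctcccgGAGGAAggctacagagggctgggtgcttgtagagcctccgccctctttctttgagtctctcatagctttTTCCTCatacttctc
Itgax, chr7:128129300-128129549, plus strand: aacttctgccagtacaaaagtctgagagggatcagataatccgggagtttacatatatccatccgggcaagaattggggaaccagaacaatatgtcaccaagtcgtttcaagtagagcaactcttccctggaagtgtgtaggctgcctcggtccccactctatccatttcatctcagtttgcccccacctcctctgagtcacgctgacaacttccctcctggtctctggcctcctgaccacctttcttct
Itgb1, chr8:128685404-128685653, plus strand: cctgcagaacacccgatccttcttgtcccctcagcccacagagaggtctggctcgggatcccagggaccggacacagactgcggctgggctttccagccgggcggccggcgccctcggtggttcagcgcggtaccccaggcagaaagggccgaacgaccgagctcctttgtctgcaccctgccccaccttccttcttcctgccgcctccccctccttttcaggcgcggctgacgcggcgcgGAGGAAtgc
Itgam held 2 matches, 84 and 15 bases before the start, Itgav 2, at 218 and 7 bases, and Itgb1 1, at 9 bases. Itgax, Itga4 and Itga1 held 0 matches in this window, which says only that these letters are not there. Of 32851 mouse promoters of the same length, 23.2% held GAGGAA. The AP-1 site TGANTCA was found in Itgax alone of the 6 and in 6.75% of all promoters. The letters TATAAA were found in 0 of the 6 and in 12.4% of all promoters. GGGCGG, the GC box, was found once each in Itga4, Itgam and Itgb1, and in 32.7% of all promoters.

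Over all kept cells, every member had a lower CPM in the THP library than in the vehicle library, by 0.08 to 1.08 on the log2 scale (with TMM factors Itgal and Itgb2 did not, as given below), and in each case the counting intervals of the 2 libraries stood apart. Itga1 was the only member past the size rule of at least 10 CPM in 1 library and a 2-fold ratio. Of 8012 genes at that level, 67.6% were lower in the THP library by any amount, 61.3% were lower with counting intervals apart, 2.97% were lower by 2-fold or more and 0.911% were higher by 2-fold or more. The median log2 ratio was -0.44 over the 10 members and -0.18 over all tested genes.

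Within the Itgb2 family no ratio reached 1.5-fold. Itgal had 35.5 CPM (34.7 to 36.3) with THP and 37.7 (36.9 to 38.5) with vehicle, a log2 ratio of -0.08. Itgam had 132 CPM (131 to 134) and 177 (175 to 179), a log2 ratio of -0.42. Itgax had 56.6 CPM (55.6 to 57.6) and 73.6 (72.5 to 74.8), a log2 ratio of -0.37. The shared chain Itgb2 had 215 CPM (213 to 217) and 254 (252 to 256), a log2 ratio of -0.24. Itgal stood nearest to equality of the 10 and above the median gene, and the other 3 stood below the median gene.

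The Itgb1 family held the 3 largest differences. Itga1 had 27.3 CPM (26.6 to 28.0) with THP and 58.8 (57.7 to 59.8) with vehicle, 2.11-fold lower with THP. Itga4 had 83.8 CPM (82.7 to 85.0) and 141 (140 to 143), 1.68-fold lower. Itgb1 itself had 226 CPM (224 to 228) and 376 (373 to 379), 1.66-fold lower. These 3 were the members lower by 1.5-fold or more, a size that 17.3% of tested genes reached. Itga6 had 24.9 CPM (24.3 to 25.6) and 34.8 (34.0 to 35.6), 1.38-fold lower. Itgav had 21.3 CPM (20.7 to 21.9) and 27.8 (27.0 to 28.5), 1.29-fold lower. Itgb3 was near the floor of the data, with 1.56 CPM (351 UMIs) and 2.73 CPM (568 UMIs), and was not tested for size.

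**Figure D1:**
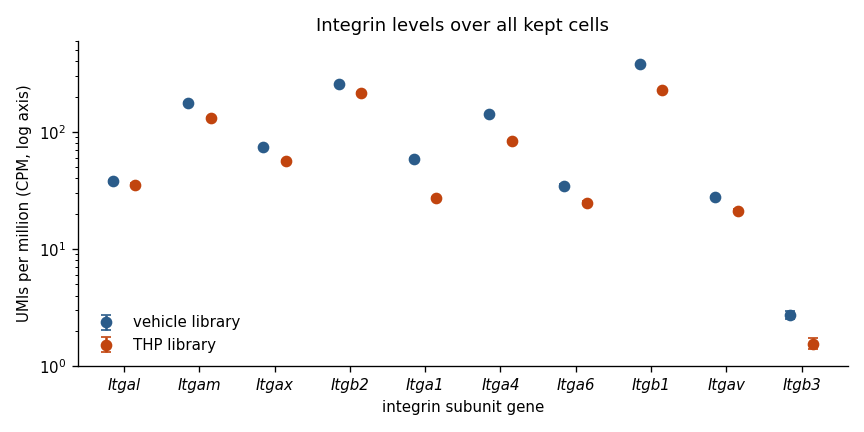
Level of each integrin gene over all kept cells of the vehicle library (blue) and the THP library (red), in CPM on a log axis, with 95% counting intervals (mostly smaller than the points). Each THP point lies below its vehicle point, least for Itgal (35.5 against 37.7 CPM) and most for Itga1 (27.3 against 58.8).

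The scale of these differences depended on how the libraries were scaled. TMM factors, which take the typical gene as unchanged, moved the median gene from -0.18 to 0.11. On that scale 8 of the 10 members were lower in the THP library, and Itgal (0.19) and Itgb2 (0.04) were not. Relative to the median gene, 9 of 10 members were lower on either scale, with Itgal the exception. Itga1 was then at -0.80 and passed the 2-fold size no longer.

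Between these libraries the ratio of a gene moved with the length of its transcript. Among 20 groups of tested genes ordered by their longest annotated transcript, the median log2 ratio went from 0.19 at a median length of 788 bases to -0.61 at 10086 bases. The members ranged from 2970 bases (Itgb2) to 10967 bases (Itga1), and the median ratio of genes of their lengths was -0.40. With this trend taken out and the median gene kept at -0.18, Itgb1 (3815 bases) was at -0.69 and Itga1 at -0.64, the lowest of the members. Itga4 was then at -0.33, Itgav at -0.05 and Itgal at 0.16, and the median of the members at -0.30. What moves with transcript length between these libraries was not tested.

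**Figure D2:**
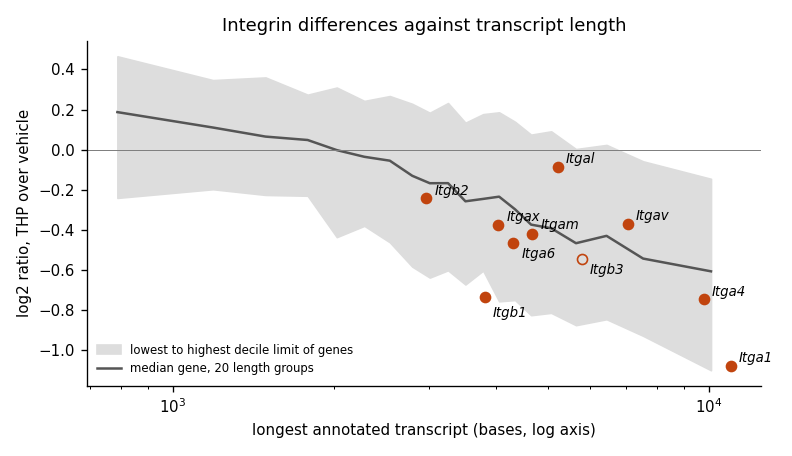
Log2 ratio of THP over vehicle (CPM + 1) of each integrin gene against the length of its longest annotated transcript, with the median (line) and the range between the lowest and highest decile limits (grey) of tested genes in 20 length groups. Itgb1 lies below the grey range at its length and Itgal above the median line, while Itga1 and Itga4 sit at the long end, where the median gene is at -0.61. The open point is Itgb3, which had too few UMIs to be tested.

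The cultures held more than macrophages, so cells were gated by the percent of their UMIs from marker panels that hold no integrin. Macrophage-gated cells (Adgre1, C1q, Mrc1 and Csf1r) were 35.4% of kept cells with THP and 21.0% with vehicle. Gates were the main grouping, and Leiden clusters, each named by the gate holding most of its cells, were an alternative. Some clusters named macrophage split by library, one holding 4590 THP and 95 vehicle cells and another 80 and 2323. A cluster with most of its cells in the immature neutrophil gate (593 of 728) also split, with 15 THP and 713 vehicle cells. Myeloid progenitors (Mpo, Elane, Prtn3) were 10.5% and 14.4%, immature neutrophils (Camp, Ltf, Ngp) 11.6% and 17.0%, and monocytes (Vcan, Ly6c2, Ccr2) 7.52% and 12.0%. Smaller gates were mature neutrophils (482 and 458 cells), cells with both monocyte and macrophage genes (230 and 242), Vsig4 macrophages (285 and 323), osteoclast-like macrophages (672 and 665, led by Mmp12), MHC class II-high cells (726 and 783), stromal cells (67 and 58) and B lineage cells (95 and 62). Mast cells or basophils (51 and 38 cells) were given as levels only, and the megakaryocyte or platelet gate held 11 and 7 cells. The gates are ranges cut from a score, and many cells lay within 1.5 times of a limit, 2899 and 2236 at the macrophage limit and 1492 and 2282 at that of the mature neutrophil panel. Within the osteoclast-like gate Ctsk (28.1 and 15.7 CPM) and Ocstamp (0.94 and 2.40 CPM) were low. The name thus rests on the other markers of its panel, chiefly Mmp12 (4689 and 4830 CPM), with Atp6v0d2 next (234 and 218 CPM).

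Of the 3 α genes of the Itgb2 family, Itgax peaked in other cells than Itgal and Itgam. Itgax was led by osteoclast-like macrophages, with 377 CPM in the THP library and 446 with vehicle. It had 39.2 and 56.8 CPM in macrophages, 45.6 and 39.4 in MHC class II-high cells and 39.6 and 37.5 in Vsig4 macrophages, 3 gates whose library values overlapped so that they could not be ordered. It had 3.02 and 4.97 CPM in immature neutrophils. Osteoclast-like macrophages, 5.54% and 6.06% of kept cells, held 50.8% and 60.9% of all Itgax UMIs. The MHC class II-high gate held 3.98% and 3.84% of the Itgax UMIs. CD11c is often read as a dendritic cell marker, but this gate is not named as dendritic cells. Flt3 (5.31 and 10.3 CPM) and Cd209a (3.15 and 5.97 CPM) of its panel were low there.

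Itgam and Itgal were highest in neutrophils. Itgam had 299 and 340 CPM in mature neutrophils and 209 and 288 in immature neutrophils, followed by osteoclast-like macrophages (191 and 257) and the monocyte and macrophage gate (198 and 214), and it was lower in monocytes (153 and 194), macrophages (127 and 172) and progenitors (76.2 and 94.9). Itgal had 102 and 86.9 CPM in mature and 52.8 and 60.1 in immature neutrophils, and between 19.8 and 48.3 in monocytes, progenitors and the macrophage and MHC class II-high gates of either library. Itgb2 followed both kinds of cell, with 597 and 664 CPM in osteoclast-like macrophages, 443 and 513 in mature neutrophils, 324 and 372 in immature neutrophils, and 84.2 and 83.2 in progenitors. Stromal cells, which should lack the family, had 15.8 and 30.8 CPM of Itgam and 32.9 and 46.0 of Itgb2, from 24 and 69 and from 50 and 103 UMIs.

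The Itgb1 family lay elsewhere. Itgb1 was highest in stromal cells (544 CPM with THP and 1042 with vehicle), then in macrophages (274 and 515), Vsig4 macrophages (309 and 507) and osteoclast-like macrophages (236 and 447), and lowest in mature neutrophils (87.3 and 92.9). Itga6 was highest of the compared gates in macrophages (34.4 and 68.3), and this gate held 67.0% and 57.8% of its UMIs. Itga4 was spread over most gates, with 121 and 177 CPM in monocytes, 110 and 171 in the monocyte and macrophage gate, 95.1 and 166 in progenitors, 82.8 and 137 in macrophages and 17.1 and 23.7 in stromal cells. Itgav was highest in stromal cells (90.0 and 107) and Vsig4 macrophages (73.3 and 103), whose library values overlapped, with 25.0 and 38.0 in macrophages.

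Itga1 was highest in monocytes and progenitors among the compared gates. Monocytes had 147 CPM with THP and 189 with vehicle, progenitors 96.7 and 137, the monocyte and macrophage gate 69.5 and 80.9, MHC class II-high cells 33.2 and 64.8, immature neutrophils 8.06 and 14.1, and macrophages 2.89 and 3.81. Of all Itga1 UMIs, progenitors held 38.8% and 39.5% and monocytes 32.5% and 37.4%. Among the cells not compared for ratio, mast cells or basophils had 97.2 CPM (36 UMIs) and 333 CPM (116 UMIs). The gates rich in Itga1 were a smaller share of the THP library than of the vehicle library, as given above.

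**Figure D3:**
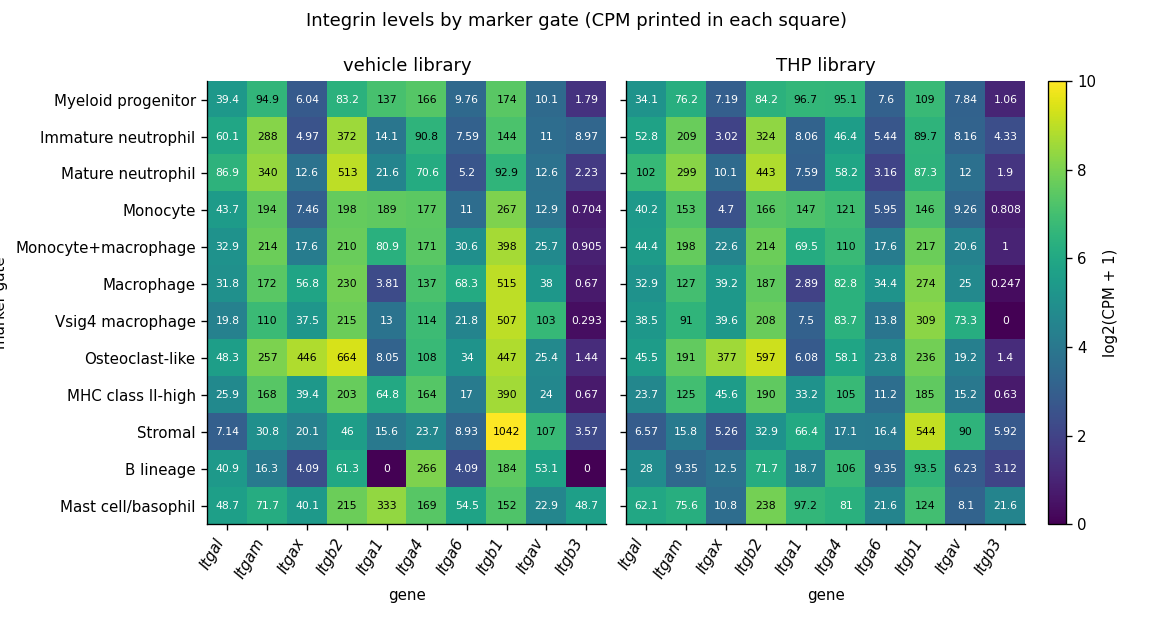
Level of each integrin gene (columns) by marker gate (rows) in the vehicle library (left) and the THP library (right), with the CPM printed in each square and the colour on a log2(CPM + 1) scale. Itgax stands out in osteoclast-like cells (446 and 377 CPM), Itga1 in progenitors and monocytes, Itgb1 in stromal cells and macrophages, and Itgb2 in osteoclast-like cells and neutrophils.

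Itgb3 was rare. Of its 351 UMIs with THP, 31.6% were in the 11 cells of the megakaryocyte or platelet gate, and of 568 with vehicle 17.8% were in 7 cells. Immature neutrophils held 12.3% with THP and 22.9% with vehicle, the larger of these shares in the vehicle library. In the megakaryocyte or platelet gate Itgb3 had 571 and 983 CPM, and Itga6 had 535 and 691. Mast cells or basophils had 21.6 and 48.7 CPM of Itgb3 from 8 and 17 UMIs. Immature neutrophils had 4.33 and 8.97 CPM, osteoclast-like macrophages 1.40 and 1.44, and macrophages 0.25 and 0.67. Vsig4 macrophages had 0 UMIs with THP and 2 with vehicle. With each cell thinned to 5000 UMIs, 0 of 257 cells with THP and 0 of 307 with vehicle in that gate held an Itgb3 UMI, which allows shares of up to 1.17% and 0.977%.

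**Figure D4:**
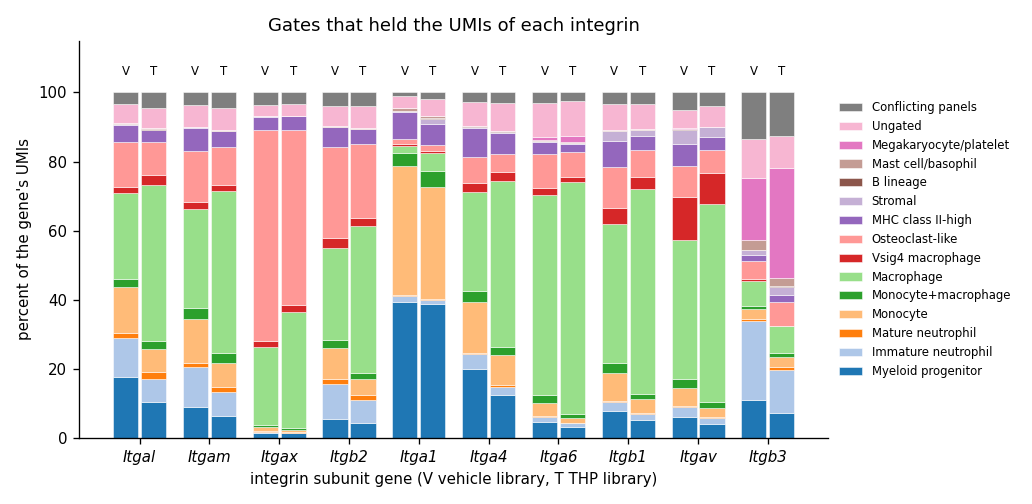
Percent of each integrin gene's UMIs found in each marker gate, for the vehicle library (V) and the THP library (T), with gates stacked in colour. Osteoclast-like cells held 60.9% and 50.8% of Itgax, progenitors and monocytes most of Itga1, and 7 and 11 cells of the megakaryocyte or platelet gate held 17.8% and 31.6% of Itgb3, of which immature neutrophils held 22.9% and 12.3%. The light green macrophage share is larger in the THP library for each member (least for Itgb3, 7.69% against 7.22%), as is the gate's share of cells (35.4% against 21.0%).

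Inside the gates most members were again lower in the THP library. Over the 11 gates with at least 50 cells in each library, 89 pairs of a member and a gate reached 10 CPM. Of these pairs 75 were lower and 14 higher in the THP library, 5 were lower and 3 higher by 2-fold or more, and pairs of 1 gate share their cells. Among all 85610 pairs of a gene and one of these gates at that level, 64.6% were lower, 5.68% lower by 2-fold or more and 2.64% higher by 2-fold or more, so the members' counts past 2-fold were near the background. Of all gene and gate pairs, 33.8% were lower with intervals apart. Itga6 was so in 6 of 7 tested gates, Itga1 in 6 of 9, Itgb2 in 4 of 11, Itgax in 3 of 8 and Itgal in 1 of 10. Itgb1, Itga4, Itgam and Itgav, the 4 members lower in 11 of 11 gates, had intervals apart in 10, 9, 8 and 7 of them. Gate ratios had no correction for transcript length, which over all cells put these 4 at -0.69 (Itgb1), -0.33 (Itga4), -0.22 (Itgam) and -0.05 (Itgav). The median gene of each compared gate was also below 0, from -0.29 in mature neutrophils to -0.065 in B lineage cells. With TMM factors within the gate these 4 were above 0 in mature neutrophils (0.20 for Itgb1, 0.01 for Itga4, 0.10 for Itgam and 0.20 for Itgav), as was Itgam in the monocyte and macrophage gate (0.04). Itgam was also above 0 in Vsig4 macrophages with the panel limits multiplied by 2 (0.02) and in B lineage cells by Leiden clusters (0.30).

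Itgb1 was lower by like amounts in most gates. Its log2 ratio was -0.91 in macrophages, -0.92 in osteoclast-like macrophages, -0.86 in monocytes, -0.71 in Vsig4 macrophages, -0.67 in progenitors and immature neutrophils, and -0.09 in mature neutrophils, where the intervals overlapped. In MHC class II-high cells it had 185 CPM (178 to 194) with THP and 390 (380 to 400) with vehicle, 2.10-fold lower, where 5.05% of 7888 genes were lower by 2-fold or more. With Leiden clusters in place of gates or TMM factors within the gate this ratio was -0.97 and -0.83, short of 2-fold.

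Itga4 was lower by 0.27 (mature neutrophils) to 0.95 (immature neutrophils) on the log2 scale outside the stromal and B lineage gates. Macrophages were at -0.72, monocytes at -0.55 and osteoclast-like macrophages at -0.88. Itgam ran there from -0.11 in the monocyte and macrophage gate to -0.46 in immature neutrophils, with macrophages at -0.43. Itga6 was lower by 0.97 in macrophages, 34.4 CPM (33.3 to 35.5) against 68.3 (66.2 to 70.4), where 2.58% of genes were lower by 2-fold or more and 0 of 8 members tested reached it. In macrophages 7 of 8 members were lower, against 66% of all tested genes, and the eighth was Itgal (32.9 and 31.8 CPM, overlapping intervals).

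Itgal and Itgax did not share that direction in every gate. Itgal was higher in the THP library in Vsig4 macrophages, 38.5 CPM (33.7 to 43.9) against 19.8 (16.6 to 23.4), and in the monocyte and macrophage gate, 44.4 (38.1 to 51.5) against 32.9 (28.3 to 38.1). Itgax was lower in macrophages (-0.52) and osteoclast-like macrophages (-0.24) and had overlapping intervals in MHC class II-high cells (0.21), Vsig4 macrophages (0.07) and the monocyte and macrophage gate (0.35). With Leiden clusters in place of gates Itgax was higher with THP in macrophages (0.24, 41.8 against 35.3 CPM) and in osteoclast-like macrophages (0.15, 425 against 382 CPM), so its direction there depended on how the cells were grouped. Outside the stromal and B lineage gates Itgb2 ran from -0.30 in macrophages to 0.03 in the monocyte and macrophage gate, and in progenitors it was equal within its interval (0.02). In osteoclast-like macrophages it was at -0.15, and above 0 with Leiden clusters (0.12) or TMM factors (0.03). In immature neutrophils it was at -0.20, and above 0 with TMM factors (0.04). TMM factors also put Itgb2 above 0 in mature neutrophils, Vsig4 macrophages and MHC class II-high cells, but not in macrophages or monocytes. Whether a gene's difference varies between gates was not tested, since each gate has 1 value per library.

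Itga1 was lower in the gates that held most of it by less than over all cells. The log2 ratio was -0.50 in progenitors (96.7 against 137 CPM) and -0.36 in monocytes (147 against 189), compared with -1.08 over all cells. With both libraries set to the same mix of gates, Itga1 had 33.4 CPM with THP and 49.5 with vehicle, 1.47-fold lower, and so missed the 2-fold size. The same step moved Itgb1 to -0.88, Itga6 to -0.77 and Itgav to -0.51, each further from 0, and left Itgam (-0.41), Itgax (-0.38), Itgb2 (-0.23) and Itga4 (-0.72) near their values over all cells. Mature neutrophils had 7.59 CPM of Itga1 (12 UMIs) against 21.6 (29 UMIs), lower by 2-fold or more as were 15.3% of genes there, and with the panel limits divided by 2 this ratio was -0.36.

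The small gates gave the remaining ratios past 2-fold. In stromal cells Itgax had 8 and 45 UMIs (5.26 against 20.1 CPM), where 7.19% of genes were lower by 2-fold or more. Itga1 had 101 and 35 UMIs there (66.4 against 15.6 CPM), where 3.68% of genes were higher by 2-fold or more. The stromal gate also differed in its own markers, with 690 CPM of Col1a1 with THP against 5637 with vehicle and median depths of 19425 and 37018 UMIs, and the part of this in the Itga1 value was not tested. In B lineage cells Itga4 had 34 and 65 UMIs (106 against 266 CPM) and Itgav 2 and 13, where 16% of genes were lower by 2-fold or more. On counts too low to set a size, Itgax (4 and 1 UMIs) and Itga1 (6 and 0) were higher there by 2-fold or more, as were 12.8% of genes.

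**Figure D5:**
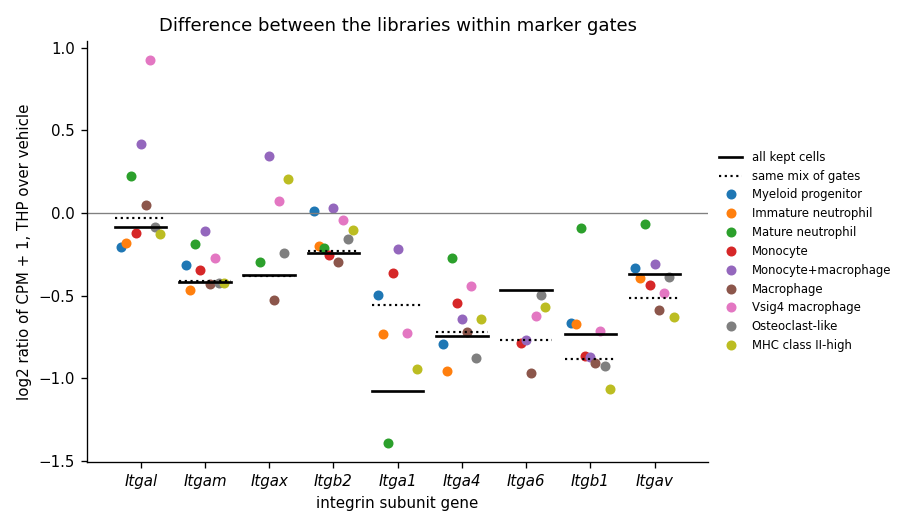
Log2 ratio of THP over vehicle (CPM + 1) of 9 integrin genes in each of 9 marker gates (points, shown where the gene reached 10 CPM in a library), over all kept cells (solid line) and with the same mix of gates in both libraries (dotted line). On this scale Itgb1 and Itga4 lie below 0 in each gate shown (with TMM factors not in mature neutrophils), Itgal lies on both sides of 0, and for Itga1 the line over all cells (-1.08) lies well below the line for the same mix (-0.55).

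The share of cells with a UMI showed a like picture. Each cell was thinned to 5000 UMIs, which left out 1958 THP and 1966 vehicle cells of lower depth. Of mature neutrophils 88 of 482 with THP and 60 of 458 with vehicle remained, and of immature neutrophils 819 of 1407 and 1121 of 1865. After this step Itgb1 was seen in 60.9% (59.9 to 61.8) of cells with THP and 74.3% (73.4 to 75.2) with vehicle. Without thinning the shares were 77.5% and 81.3%. Itga4 was seen in 32.6% against 48.3% of thinned cells, Itgam in 45.4% against 54.5%, Itgb2 in 57.5% against 61.0% and Itga1 in 9.82% against 16.8%. Itga6 (8.93% and 11.8%), Itgav (8.97% and 11.8%) and Itgb3 (0.669% and 1.11%) were lower as well, while the intervals of Itgal (15.9% and 16.5%) and Itgax (13.7% and 13.9%) overlapped. Without thinning Itgax was seen in more cells with THP, 24.9% (24.1 to 25.7) against 23.2% (22.4 to 24.0). In macrophages alone Itgb1 was seen in 74.2% (72.8 to 75.5) against 90.8% (89.5 to 91.9), and Itga6 in 14.1% against 27.0%.

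Free RNA in the droplets sets a floor to such shares. Itgax was seen in 79.8% and 85.0% of thinned osteoclast-like cells (median depths before thinning 23486 and 29012 UMIs) and in 1.47% and 1.78% of immature neutrophils (8083 and 9435 UMIs). Itga1 was seen in 42.5% and 46.6% of monocytes (15300 and 18532 UMIs) and in 1.08% and 1.69% of macrophages (21452 and 23900 UMIs), a share in macrophages that is not told apart here from free RNA. Itgam was seen in 3.08% and 7.02% of stromal cells, 2 of 65 and 4 of 57. Itgb3 was seen in 3 of 643 and 4 of 648 osteoclast-like cells and in 7 of 4181 and 10 of 2246 macrophages, with overlapping intervals. Its CPM over all UMIs of these gates, given above, was higher in osteoclast-like cells in both libraries, with intervals apart.

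Partner chains were seen together to different degrees. Of thinned cells with an Itgax UMI, 79.8% with THP and 82.7% with vehicle also had Itgb2, against 53.9% and 57.6% of the other cells. For Itgam and Itgb2 the shares were 62.7% and 67.3% against 53.1% and 53.6%, and for Itgal and Itgb2 64.0% and 65.9% against 56.2% and 60.1%. Itga6 went with Itgb1 in 72.8% and 87.6% of its cells against 59.7% and 72.5%, and Itgav with Itgb1 in 73.2% and 84.5% against 59.7% and 73.0%. Itga4, seen across most gates, went with Itgb1 in 62.5% and 74.7% of its cells against 60.1% and 73.9%. Of cells with Itga1, 46.7% and 66.8% had Itgb1 against 62.4% and 75.8% of the others, with intervals apart in both libraries. Itgav cells had Itgb3 in 4 of 912 and 7 of 1063 cases. These shares describe cells of mixed types within 1 library each, with most mature neutrophils left out by the thinning, and carry no test.

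Across 23 profiles of a gate in a library, the profiles of some partner chains were alike. The Pearson correlation of log2(CPM + 1) was 0.86 for Itgam with Itgb2, 0.73 for Itgal with Itgb2, 0.83 for Itgav with Itgb1 and 0.61 for Itga6 with Itgb1, and -0.72 for Itgal with Itgb1. Itgax and Itgb2 were at 0.48, and Itga1 and Itgb1 at -0.07. Profiles of a gate share panels and those of a library share depth, so these values are descriptions with no p. Among 10836 genes the most like pattern was Rac2 (a leukocyte GTPase, 0.92) for Itgal, Myo1f (a leukocyte myosin, 0.94) for Itgam, Anpep (aminopeptidase N, 0.94) for Itgax, Lilr4b (an inhibitory leukocyte receptor, 0.95) for Itgb2, Zranb2 (0.83) for Itga1, Btk (a kinase of B and myeloid cells, 0.93) for Itga4, Dennd4c (0.87) for Itga6, Rnf150 (0.96) for Itgb1, Tns1 (tensin, an adhesion protein that binds actin, 0.98) for Itgav and Klhl23 (0.84) for Itgb3.

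Of 16 other integrin subunits, 4 reached 10 CPM, and Itga5 stood apart from the rest by its direction. Itga5, the fibronectin receptor chain that pairs with Itgb1, had 46.7 CPM with THP and 21.7 with vehicle, 2.10-fold higher. It was higher in each of the 10 compared gates where it reached 10 CPM, among them macrophages (59.5 against 29.5) and Vsig4 macrophages (81.5 against 29.0), and with the same mix of gates its log2 ratio was 0.90. Itga8 (7.09 against 12.8 CPM), Itgb7 (30.8 against 51.0), a partner of Itga4 on lymphocytes, and Itgb5 (32.1 against 42.9), a partner of Itgav, were lower. The remaining 12 were under 10 CPM, among them Itgad, the third α gene next to Itgam and Itgax (0.94 and 1.18 CPM), and Itga2b (1.51 and 2.05 CPM).

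Ligands and signalling genes of the integrin system did not move as one. Icam1, the counter-receptor of the Itgal, Itgam and Itgax receptors, had 110 CPM with THP and 30.4 with vehicle, 3.53-fold higher, and was higher in each of the 11 gates. Of 8 tested ligands it was the only one past 2-fold; Fn1 (fibronectin, 34.1 against 62.9 CPM) and Thbs1 (thrombospondin, 85.2 against 137) were lower, and Thbs1 went from -0.68 to -0.20 with the same mix of gates. Of 17 tested genes of integrin activation and linkage to actin, 14 were lower, 3 higher and 0 past 2-fold, with a median of -0.27, beside 67.6% lower and a median of -0.18 over all tested genes. They included Tln1 (talin, which switches integrins on, 405 against 658 CPM), Vcl (vinculin, 28.7 against 45.5) and Cyth1 (9.12 against 14.8).

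Of 11 tested kinases and adaptors that signal from bound integrins, 5 were higher and 6 lower. Vav3, an exchange factor, had 34.6 CPM against 70.3, 2.00-fold lower, and was at -1.12 in macrophages and -1.25 in monocytes. Over all cells it was at -0.82 with the length trend removed, short of 2-fold, and at -1.07 with the same mix of gates. Plcg2, a phospholipase, had 41.4 against 65.0 CPM (-0.64). Of 8 membrane partners 7 were higher, all by less than 2-fold, where 67.6% of all tested genes were lower. They were led by Cd82 (a tetraspanin, 35.8 against 25.7 CPM), Plaur (the urokinase receptor, 103 against 75.7) and Cd47 (380 against 322). With the length trend removed, Cd47 (0.48), Cd44 (0.30), Cd82 (0.25) and Plaur (0.24) were above 0. Cd9 (-0.14), Cd81 (-0.28), Cd151 (-0.11) and Tspan4 (-0.06) were then below 0.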

How the data were processed

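The deposited files hold raw UMI counts for each gene in each barcode, with software version 3.1.0 per the file headers. Cell Ranger, STAR, bcl2fastq and the build mm10 are named in the submitters' processing notes, with no versions or settings. Barcodes with at least 500 genes, at least 1000 UMIs and at most 10% mitochondrial UMIs were kept. Doublets were not removed; cells passing conflicting panels (484 THP, 341 vehicle) were set apart and the top 5% of cells by UMIs were left out as an alternative. UMIs were summed per library and gate and divided by the sum over all genes, times 1000000, to give CPM.

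A gene was tested for size at 10 CPM or more in at least 1 library and called at a 2-fold ratio of CPM + 1. Intervals on CPM are exact Poisson and those on shares exact (Clopper-Pearson) binomial, and the limit given for a share of 0 is 3 cells of the total. The members, lists and panels were chosen with earlier results of these data known, and the limits of the 12 panels in use, between 0.05% and 20% of a cell's UMIs, were set after seeing how panel shares were spread. Genes of a list were named if called, and otherwise up to 3 by size; 1 gene that this rule names is not reported here. The same mix of gates weights the mean UMIs per cell of each gate by that gate's mean share of kept cells in both libraries. The length trend is a running median over 201 genes ordered by longest transcript, known for 30934 of 31053 genes. The scripts were tested on simulated counts. Tools were scanpy 1.11.5, igraph 0.11.9, scipy 1.17.1, numpy 2.4.6, edgeR 4.0.16 (TMM and RLE factors only) and R 4.3.3.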

Additional observations from a re-analysis of the deposited data

Results flagged for a closer look

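In 3 cases a member went the opposite way in one gate from its direction in other gates, with counting intervals apart in both. Itgal was higher in the THP library in Vsig4 macrophages (log2 ratio 0.93) and in the monocyte and macrophage gate (0.42). It was lower with intervals apart in progenitors alone, at -0.20 beside -0.17 for the median gene of that gate. The Vsig4 value ranged from 0.61 with panel limits divided by 2 to 1.08 with TMM factors. That of the monocyte and macrophage gate was 0.08 with limits divided by 2, where 905 and 1118 cells entered that gate. Itga1 was higher in stromal cells (2.02) and lower with intervals apart in 6 other gates. It was 2.21 with panel limits multiplied by 2, 2.08 with TMM factors and 2.04 with Leiden clusters. None of these differences between gates was tested.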

How the results depend on the processing

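Itga1 was the 1 member past 2-fold over all cells. The count was 0 with TMM factors, RLE factors, a pseudocount of 5 CPM, equal weight per cell, the same mix of gates or the length trend removed, and 3 at 1.5-fold (Itga1, Itga4 and Itgb1). The median log2 ratio of the members (-0.44) was -0.16 with TMM and -0.17 with RLE factors, -0.38 with the pseudocount of 5 CPM, -0.52 with the same mix of gates and -0.30 with the length trend removed; the cause of these shifts was not tested. Of 100 single-member values under the alternatives, 5 were at or above 0: Itgal and Itgb2 with TMM and RLE factors, and Itgal with the length trend removed. Within gates 75 of 89 values were lower; Leiden clusters gave 59 of 75 and TMM factors within the gate 60 of 88. Leaving out the megakaryocyte or platelet gate, an alternative added after seeing the data, gave -0.45 for the median and -0.65 for Itgb3. No paired analysis was possible because each group has 1 library and the labels give no replicate numbers, and for the same reason no replicate could be left out. Depth limits Itgb3 in each gate, and the stromal, B lineage and mast cell values, which rest on few UMIs.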

Other observations

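Barcodes left out by the cell filter carried integrin UMIs too. Per 1000000 of their own UMIs they had 102 CPM of Itgal with THP and 75.5 with vehicle, 284 and 306 of Itgam, 98.1 and 69.2 of Itgax, and 362 and 298 of Itgb2. Itgb1 was at 354 and 443 CPM there, Itga4 at 190 and 223 and Itga1 at 64.7 and 108.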
